A study of Mus musculus with 6 samples.

Results

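The selenocysteine tRNA was represented by 1 reference, SeC-TCA-1, among 190 tRNA references, and it was taken by its name. It was compared across brain small RNA from wild-type mice (WT, 3 libraries) and TRMT1L knockout mice (KO, 3 libraries). The labels call the triplicates biological and give each library as whole mouse brain, with genotype WT or KO and no treatment. The knockout allele, the strain, the age and whether 1 animal gave 1 library are not given in the sources used here. RNA was size-selected between 30 and 150 bp, and each library was read as coverage, base calls, read starts, deletions and insertions at each tRNA position. Each brain holds many cell types, so fewer cells making a tRNA and less of it per cell cannot be told apart. The comparison addressed how tRNAs differ without TRMT1L.

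Selenocysteine tRNA is first charged with serine by seryl-tRNA synthetase, the serine is then converted to selenocysteine, and the tRNA decodes UGA codons in the mRNAs of selenoproteins, several of which protect neurons from oxidative damage. It has a long variable arm and few modified bases, among them 1-methyladenosine in the T loop at canonical position 58, isopentenyladenosine beside the anticodon at position 37 and a modified wobble uridine at position 34. TRMT1L is a paralogue of TRMT1, the enzyme that methylates guanosine 26 of many tRNAs. A modification on the pairing face of a base can make reverse transcriptase misread the base, skip it or stop, so such bases leave mismatches, deletions or read starts.

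The parts of the reference that the reads covered are shown because every result below lies on them. They run 5′ to 3′ as DNA letters in the deposited tables, from position 1 to 20 and from 35 to 86. Capitals mark the anticodon with the adenosine after it (position 39, canonical 37) and the T-loop adenosine (position 71, canonical 58).
SeC-TCA-1, 1 to 20: gcccggatgatcctcagtgg
SeC-TCA-1, 35 to 86: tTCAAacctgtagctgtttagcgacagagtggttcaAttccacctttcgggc
The longest run of bases that SeC-TCA-1 shared with any of the 189 other references was 11, with Ala-TGC-8 among 3 such references. Over the positions listed, the set thus held no near-identical copy of it. Unlisted positions and unlisted references were not compared, so whether its reads were shared with another copy was not tested.

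Sequencing gave 6151209, 6295061 and 6274159 base calls for wild-type libraries 1 to 3 and 8295437, 7981301 and 8797395 for knockout libraries 1 to 3, so that every knockout library was deeper. SeC-TCA-1 took 0.0946%, 0.0522% and 0.0770% of the wild-type calls and 0.0607%, 0.0593% and 0.0688% of the knockout calls. A position with fewer than 30 reads is not listed in the tables, and its level is then known only to lie below that. No check of the genotypes by the TRMT1L transcript was made. Genotype and depth moved together, and the part of depth in the results below was not tested except by scaling.

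SeC-TCA-1 was a sparsely covered tRNA. Its highest coverage was 202, 88 and 116 reads in the wild-type libraries and 112, 107 and 125 reads in the knockout libraries (135.3 ± 59.4 and 114.7 ± 9.29, SD, n = 3). Wild-type library 1 stood highest, wild-type library 2 lowest, and the knockout libraries lay between them. The median highest coverage of 133 other non-mitochondrial references listed in all 6 libraries was 363, 382 and 300 reads in the wild type, against 605, 555 and 633 in the knockout. Between 14.3% and 37.6% of those references lay below SeC-TCA-1 in a library, the highest share being in wild-type library 1.

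Coverage fell into 2 blocks with a gap between them. Positions 3 to 20 and 53 to 80 were listed in all 6 libraries, which made 46 of 86 positions or 53.5%, beside a median of 61.2% for the other references. Positions 21 to 34, which span the end of the D arm and the start of the anticodon arm, were listed in no library. Canonical positions 26 and 27, which TRMT1 family members are known to modify in other tRNAs, lie in that gap (positions 28 and 29), so nothing can be said of them here. Coverage was lost by at least 66.7% to 85.2% between positions 20 and 21, where the mean base quality had fallen to between 33.2 and 34.5 from 38.6 to 39.0 at the position 10 before. A second fall, of at least 56.5% to 73.9%, followed position 80, with a mean quality of 28.4 to 31.8 there. The part of base quality in these falls was not tested. Positions 81 to 86 were listed only in wild-type library 2, at 30 reads, and in knockout library 3, at 50 reads.

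**Figure D1:**
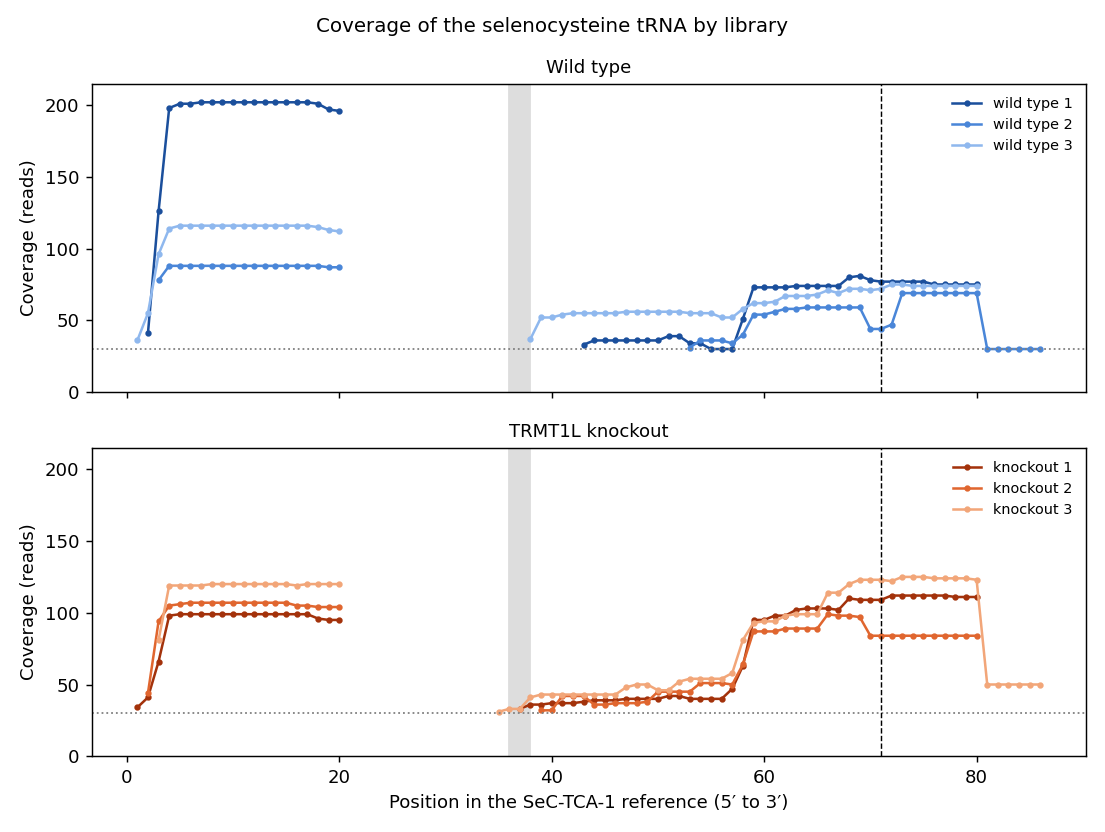
Coverage in reads against position in the reference, 5′ to 3′, for the 3 wild-type libraries (top) and the 3 knockout libraries (bottom). The dotted line is the lowest listed coverage of 30 reads, the grey band the anticodon and the dashed line the T-loop adenosine. The 5′ block of wild-type library 1 reaches 202 reads, and no library has a listed position between 21 and 34.

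The primary test of abundance did not call SeC-TCA-1. Scaled to 1000000 base calls, its highest coverage was 32.8, 14.0 and 18.5 in the wild type, against 13.5, 13.4 and 14.2 in the knockout, and the groups overlapped (exact two-sided permutation p = 0.2). Groups did not overlap for 34.5% of references on that scale, and for 57.2% the unscaled knockout values all lay above the wild type. In edgeR's quasi-likelihood test the log2 fold change of knockout over wild type was −0.72 (SE 0.30), with an adjusted p of 0.13. Of 145 references tested, 22.8% were called. The median of the 133 others was 0.02, and 8 of them had a lower value than SeC-TCA-1. Single wild-type libraries moved the value. Without wild-type library 1 it was −0.33 (edgeR adjusted p = 0.341), and without wild-type library 2 it was −0.95 (adjusted p = 0.0126). Upper-quartile scaling gave −1.24 (edgeR adjusted p = 0.00788), but it also moved the median of all references to −0.49. Other summaries of coverage gave smaller values, −0.36 for summed coverage (edgeR adjusted p = 0.395) and −0.07 for median coverage (SE 0.19, adjusted p = 0.862), where the median of all references was −0.13.

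The tRNA-Ser references share the charging enzyme and the long variable arm with SeC-TCA-1. Their 10 log2 fold changes ran from −0.53 to 0.25, with edgeR adjusted p-values from 0.298 to 0.929. The scaled coverage that was most like that of SeC-TCA-1 over the 6 libraries was on Arg-CCT-4 (Pearson r = 0.974), Arg-CCT-3 (0.969) and Asn-GTT-3 (0.912). These correlations are a description over libraries that share their depth, and all 3 references were also highest in wild-type library 1.

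Coverage of the 5′ block and of the second block is given apart. In the 5′ block, positions 1 to 20, the highest coverage was 202, 88 and 116 reads in the wild type, against 99, 107 and 120 in the knockout. Scaled to the base calls, these were 32.8, 14.0 and 18.5 against 11.9, 13.4 and 13.6, and all 3 knockout values lay below all 3 wild-type values (exact permutation p = 0.1, the smallest that 3 against 3 allows). The nearest pair, wild-type library 2 and knockout library 3, differed by little, and 17.1% of 111 references with both parts covered had 5′ parts placed that way. From position 58 to 80 the highest coverage was 81, 69 and 75 reads in the wild type, against 112, 99 and 125 in the knockout. Those knockout values were all above the wild type before scaling, as they were for 52.3% of the 3′ parts tested. The scaled values were 13.2, 10.96 and 12.0 against 13.5, 12.4 and 14.2, and the groups overlapped (exact permutation p = 0.2), while 26.1% of references did not overlap on that scale. Between the blocks, positions 35 to 57 never exceeded 58 reads.

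The primary measure of the balance between the 5′ and 3′ parts was the log2 ratio of mean coverage over positions 1 to 43 to that over 44 to 86, with unlisted positions counted as 0. It was 0.72, −0.12 and 0.04 in the wild type, against −0.52, −0.29 and −0.54 in the knockout. The knockout values all lay below the wild type, by a mean of −0.66 (SE 0.25, exact permutation p = 0.1), and 9.01% of references had groups placed in that way. The limma fit over 111 references gave an adjusted p of 0.340 and did not call it; 0.901% were called. The other references had medians of 0.32, 0.43 and 0.38 in the wild type, against 0.54, 0.44 and 0.48 in the knockout, which did not move downwards with SeC-TCA-1. Of 100 others, 5 changed by a more negative amount. Without wild-type library 1 the difference was −0.41, more than 1.5 times smaller.

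Each part was then fitted alone on its highest coverage, an analysis added after the primary tests had missed the threshold. The 5′ part, positions 1 to 43, fell in the knockout, by 0.91 on the log2 scale (SE 0.27; adjusted p = 0.0273, edgeR), and it is the one value of SeC-TCA-1 past its threshold with all libraries and the first scaling used. Of the 111 references in that fit 33.3% were called, and 16.2% were called lower, and a call there was thus common. It was lost without wild-type library 1 (−0.57, edgeR adjusted p = 0.0891), without knockout library 1 (−0.86, adjusted p = 0.0525) and when total base calls replaced TMM scaling (−0.74, adjusted p = 0.111). The 3′ part differed by 0.12 on that scale (SE 0.22; adjusted p = 0.876, edgeR), in a fit that called 17.1% of references. Whether the parts changed differently is what the ratio tested, and that test did not pass. The primary ratio used mean coverage. With the highest coverage of each part the ratio changed by −0.81 (limma adjusted p = 0.244) and was not called either.

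**Figure D2:**
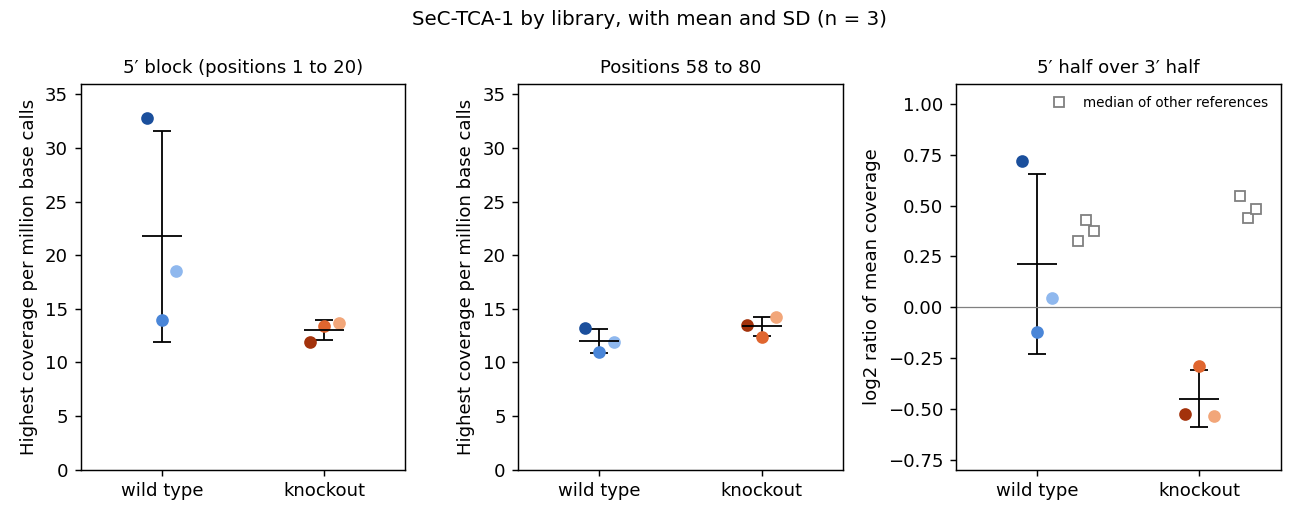
Highest coverage scaled to 1000000 base calls in the 5′ block (left) and from position 58 to 80 (middle), and the 5′ over 3′ ratio on a log2 scale (right), with each library as a point and the mean and SD of 3 libraries as lines. Open squares on the right are the median of the other non-mitochondrial references in each library. Wild-type library 1 lies far above the other libraries in the left and right panels.

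The T-loop adenosine was misread in most reads of both genotypes. The stretch around it is shown beside that of Met-CAT-1, the reference with the next highest mismatch at this base, and of 2 tRNA-Ser references. Capitals mark canonical adenosine 58. The references shown were picked after their values were seen.
SeC-TCA-1, 62 to 78: agtggttcaAttccacc
Met-CAT-1, 49 to 65: gtgagttcgAtcctcac
Ser-GCT-3, 58 to 74: gtgggttcgAatcccat
Ser-AGA-1, 58 to 74: gcaggttcgAatcctgc

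At adenosine 58 of SeC-TCA-1, 63 of 77 bases, 32 of 44 and 64 of 71 were mismatched in wild-type libraries 1 to 3, and 94 of 109, 74 of 84 and 104 of 123 in knockout libraries 1 to 3. These are 81.8%, 72.7% and 90.1% in the wild type, against 86.2%, 88.1% and 84.6% in the knockout. The lowest library, wild-type library 2, had a Wilson 95% interval of 58.2% to 83.7%, and the highest, wild-type library 3, one of 81.02% to 95.1%. The knockout values all lay inside the wild-type range. Mean mismatch was 81.6% ± 8.71 in the wild type, against 86.3% ± 1.77 in the knockout (SD, n = 3), a difference of 4.73 percentage points (exact two-sided permutation p = 0.5). The difference was 0.316 points without wild-type library 2 and 9.02 without wild-type library 3. The quasi-binomial fit with limma-moderated dispersion gave an adjusted p of 0.727. At a coverage minimum of 30 it tested 260 sites over all references and called 0%, with 20 sites at an unadjusted p under 0.05, and limma on the arcsine square root also called 0, with 8 unadjusted. A missed call does not show that the mismatch was equal in the 2 genotypes.

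Every mismatch at adenosine 58 was a T. The mean base quality there was 37.25 to 39.2 over all bases called, matched or not, in the 6 libraries. Deletions were listed at this base only in knockout library 3, 6 beside a coverage of 123 reads. All 123 reads also gave a base. The ratio of 4.88% (Wilson 95% interval 2.26% to 10.2%) may therefore not be a share of reads. Whether the deletions lie at this base or beside it was not tested. The adjusted p for deletion was 0.573 by the quasi-binomial fit with limma-moderated dispersion, which called 0% of 110 deletion sites, with 9 unadjusted, while the arcsine fit called 0, with 3 unadjusted. No insertion was read at any listed position of SeC-TCA-1, so it entered no insertion fit. In a library, 47 to 81 of the 133 other references also had no insertion, and 34 to 64 had no deletion.

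Among the non-mitochondrial references with this adenosine located and covered, SeC-TCA-1 was misread most. Its mean over the 6 libraries was 83.9% ± 6.19 (SD, n = 6), whereas 60 other non-mitochondrial references, 54 of them distinct, had a median of 3.98% and quartiles of 1.56% and 28.0%. Only 12 of the 60 exceeded 50%, and 38 were under 10%. The difference between SeC-TCA-1 and the median of the others averaged 78.2 percentage points and ran from 65.0 to 84.2 points over the 6 libraries, which is given as a description since the values had been seen. Met-CAT-1, a methionine tRNA, followed at 78.7% ± 8.55 (SD, n = 6), and SeC-TCA-1 was higher in 6 of 6 libraries, by 0.574 to 10.97 points. Single libraries of other references came close, and Arg-CCG-1 stood at 88.6% in wild-type library 3, where SeC-TCA-1 stood at 90.1%. The share of T among mismatches, 100% for SeC-TCA-1, had a median of 75% over 51 others with at least 1% mismatch, and 9 of those were also at 100%. The 8 tRNA-Ser references measured here, which share the serine charging step, had means of only 0.439% to 3.12%, and no library of theirs exceeded 12.2%. Ser-AGA-1 and Ser-TGA-2 had the same values in all 6 libraries, so the 8 are not all separate observations.

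**Figure D3:**
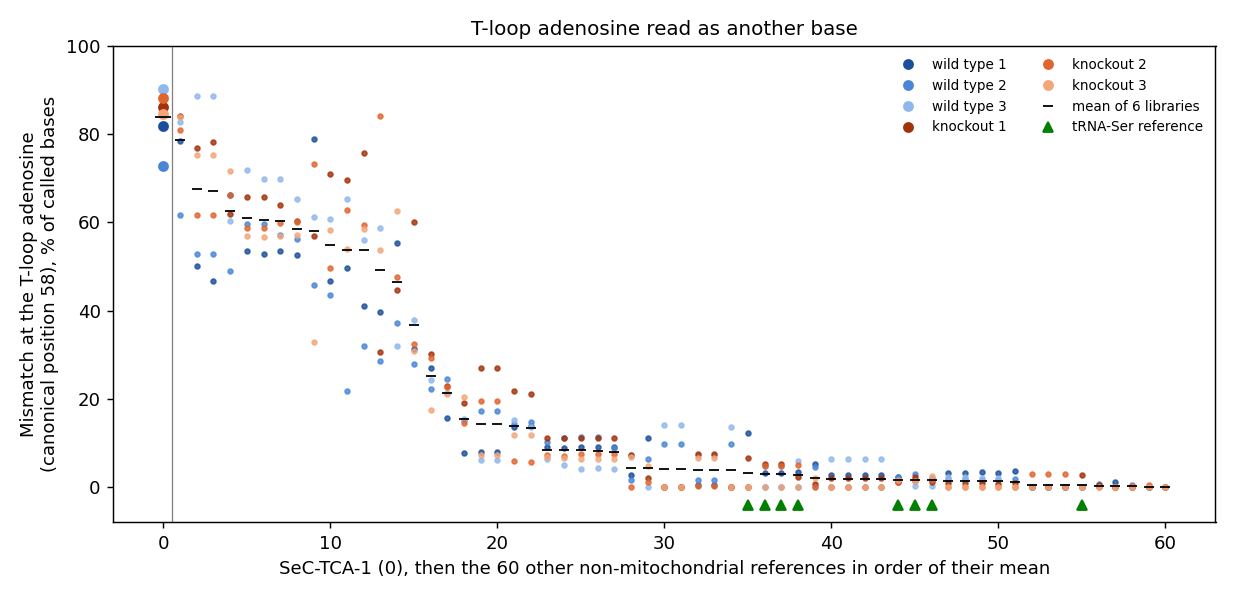
Mismatch at the T-loop adenosine, in percent of called bases, for SeC-TCA-1 (at 0 on the horizontal axis) and for the 60 other non-mitochondrial references in order of their mean, with a point for each library, a dash for the mean of 6 libraries and triangles under the tRNA-Ser references. SeC-TCA-1 has the highest mean, 83.9%, and the tRNA-Ser references lie near 0.

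The neighbouring bases of the T loop were read without error. Canonical positions 54 to 57, which hold the uridines, the cytidine and the first adenosine of the T-loop motif, had 0 mismatches in all 6 libraries. Outside adenosine 58 the listed positions of the molecule carried 5 mismatched calls of 29250, at positions 7, 20, 66 and 74. That was 0% to 0.0215% of calls in a library. With adenosine 58 included, as the like measure for the other references, 0.974% to 1.89% of SeC-TCA-1 calls in a library were mismatched, above the median of 0.105% to 0.273% for the other references in 6 of 6 libraries.

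The anticodon loop was covered too thinly for a comparison of genotypes. Adenosine 37 was listed in wild-type library 3, with 52 bases, and in knockout libraries 1, 2 and 3, with 36, 32 and 43 bases. All of these bases matched the reference, and the upper Wilson 95% limits were 6.88%, 9.64%, 10.7% and 8.20%. The 3 anticodon bases were listed in at most 3 libraries, adenosine 38 in 4, and none had a mismatch. The wobble base was listed only in knockout library 3, with 33 bases and an upper limit of 10.4%. Canonical positions 34 and 35 were listed in no wild-type library and 36 to 38 in 1, so the genotypes could not be compared there. Position 37 could not be located on Ser-AGA, Ser-CGA and Ser-TGA, which carry the same kind of modified adenosine, so no value stands beside it.

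In each library the largest group of counted read starts lay at the 5′ end. Positions 1 to 6 held 170 of 234, 66 of 128 and 115 of 172 starts counted in wild-type libraries 1 to 3. In knockout libraries 1 to 3 they held 99 of 189, 80 of 150 and 91 of 213. Starts were known at 5, 4 and 6 of these positions in the wild type and at 6, 5 and 4 in the knockout. The shares thus cannot be compared between libraries. The other starts lay along the molecule, with groups at the anticodon loop and before the T arm that differed between libraries. At position 3, starts made up 67.5%, 71.8% and 42.7% of coverage in the wild type, against 37.9%, 53.2% and 65.4% in the knockout. At position 4 they made up 36.4%, 11.4% and 15.8% against 32.7%, 10.5% and 31.9%. Both positions lie within the first bases of the acceptor stem, and wild-type and knockout values overlapped at each. Further along, position 58 of the reference, in the variable arm before the T stem, had 41.2%, 15% and 10.3% in the wild type, against 25.4%, 21.9% and 28.4% in the knockout. Position 59 had 30.1%, 25.9% and 6.45% against 33.7%, 26.4% and 12.9%. Wild-type and knockout values overlapped at both positions. In wild-type library 3 the larger internal group of starts lay at the anticodon loop, with 11 of 37 reads at position 38 (29.7%, Wilson 95% interval 17.5% to 45.8%) and 15 of 52 at position 39 (28.8%, 18.3% to 42.3%). Over positions 35 to 40 there were 26 starts in that library, against 10 over positions 57 to 60. The knockout libraries had 11, 5 and 20 starts over positions 35 to 40, against 55, 37 and 42 over positions 57 to 60. Wild-type libraries 1 and 2 had no position listed from 35 to 40, so starts there are not known. Starts were known at 3 of these positions in wild-type library 3 and at 4, 2 and 6 in knockout libraries 1 to 3. From 57 to 60 they were known at 4 in each library. The counts from 35 to 40 are thus lower bounds where positions were unlisted.

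Few reads began directly 3′ of the misread adenosine. At position 72 starts made up 0% to 6.38% of coverage over the 6 libraries. At position 73 they made up 31.9% in wild-type library 2 (22 of 69 reads, Wilson 95% interval 22.1% to 43.6%), 2.40% in knockout library 3 and 0% in the other libraries. Wild-type library 2 was also the one with the lowest mismatch at adenosine 58 and with 44 reads there beside 69 at position 73; their relation was not tested. The quasi-binomial fit of read starts with limma-moderated dispersion tested 14 sites of SeC-TCA-1 among 1782 and called 0 of the 14, with 0 at an unadjusted p under 0.05 and a lowest adjusted p of 0.664. That fit called 0.168% of all 1782 read-start sites. The arcsine fit, which called 4 of the 1782, also called 0 of the 14.

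**Figure D4:**
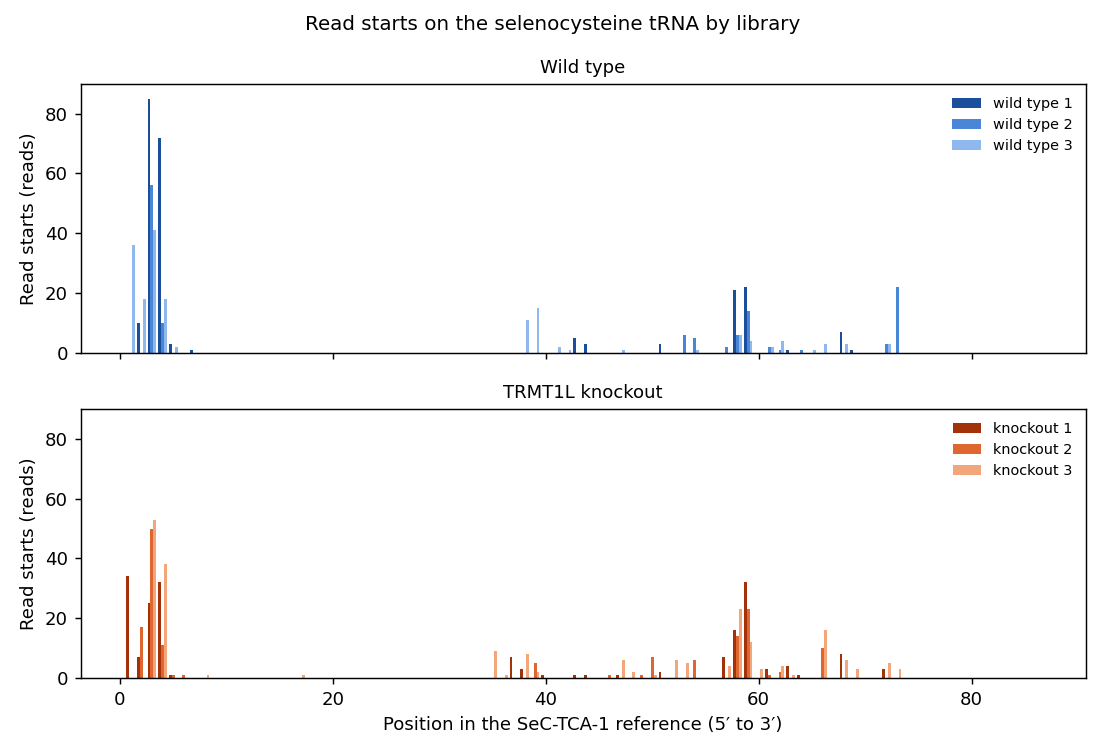
Number of reads that start at each position of the reference, 5′ to 3′, for the 3 wild-type libraries (top) and the 3 knockout libraries (bottom). Starts gather at positions 1 to 4 in all 6 libraries, at 58 and 59 to a varying extent, and at 38 and 39 in wild-type library 3 (11 and 15 reads), and the bar of 22 reads at position 73 is in wild-type library 2 alone.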

How the data were processed

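Total RNA of mouse brain was ribo-depleted, size-selected and sequenced, per the labels' protocols. The deposited files list, per the file headers, raw counts at each position (coverage, base calls, reverse-transcription stops, deletions, insertions) and a base quality score, as the authors' mean and median. GATK 3.5 is named in the submitters' processing notes without a role. The aligner, the reference set and the genome build are not given in the sources used here, so no genome coordinates are given.

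The lowest listed coverage was 30 reads. Stops are listed 1 position after the read start and were moved back, which matched coverage rises within 1 read in 85 of 88 cases. A reference's abundance was its highest coverage, tested with edgeR 4.0.16 (quasi-likelihood, TMM, filterByExpr) and, as an alternative, DESeq2 1.42.0, in R 4.3.3. The standard error was taken from the F statistic. Ratios of the 5′ to the 3′ part were tested with limma 3.58.1. Sites were tested with a quasi-binomial model whose dispersion was moderated by limma and floored at 1, over positions with a pooled rate of at least 1%. The primary coverage minimum of 100 reads left no site of SeC-TCA-1, so a minimum of 30 is reported. All fits ran over the whole table with Benjamini-Hochberg adjustment at 0.05, two-sided. Wilson 95% intervals cover counting error only, and PCR copies are not independent molecules.

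The fits were tested on simulated data. At the dispersion between libraries estimated from the sites, the mismatch and read-start fits each missed most sites whose odds were changed 4-fold. They missed fewer at a smaller dispersion and more at a larger one, so an uncalled site is not evidence of no change.

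The member, the lists and the tests were chosen with earlier results of these data known. The named positions were the anticodon and its neighbours, canonical 26, 27, 37, 38 and 54 to 58, the position of highest coverage and the up to 5 positions highest in each event, with the 3 references most like in coverage. Fits of each part, combinations with the coverage minimum of 30, the comparison of adenosine 58 with other references, and the displayed references were added after seeing the data. No 2 libraries of a group were alike within sampling noise (chi-square per degree of freedom 16.4 to 58.2 over 128 references). Replicate numbers come from the titles. The deviations of same-numbered libraries correlated at 0.1, 0.037 and 0.09, so the numbers were not taken to pair them.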

Additional observations from a re-analysis of the deposited data

How the results depend on the processing

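Abundance of SeC-TCA-1 ran from −1.24 to −0.07 over 9 changes of processing and was called under upper-quartile scaling (−1.24, edgeR adjusted p = 0.00788). DESeq2 gave −0.76 (adjusted p = 0.0873), summed coverage −0.36 and median coverage −0.07 (SE 0.19). With median coverage the median of all references was −0.13, so SeC-TCA-1 was not lower than the others there. Leaving out each library gave −0.95 to −0.33, with a call only without wild-type library 2. With replicate number as a block abundance was −0.65 (edgeR adjusted p = 0.13), the 5′ part −0.86 (adjusted p = 0.00488), the 5′ to 3′ ratio −0.66 (limma adjusted p = 0.387) and the mismatch difference at adenosine 58 again 4.73 points. The block changed no call. The 5′ part, added after seeing the data, ran from −1.13 to −0.57 without single libraries. It was not past the threshold without wild-type library 1 or knockout library 1, or with total base calls (−0.74, edgeR adjusted p = 0.111). The 3′ part changed sign with upper-quartile scaling (−0.15) and ran from −0.020, without wild-type library 2, to 0.16. The 5′ to 3′ ratio was −0.82 to −0.64 over 5 changes and −0.83 to −0.41 without single libraries, and was called in none. The mismatch difference was 3.26 points with pooled reads, 6.78 with deletions added (exact permutation p = 0.3), and 0.316 to 9.02 without single libraries. The 6.78 adds the 6 deletions of knockout library 3 over a coverage of 123, where all 123 reads gave a base. It may thus be too high. The causes were not tested. No site of SeC-TCA-1 was called in any setting that held one, by the quasi-binomial fit or limma. No such site remained in 11 mismatch, 11 read-start, 12 deletion and 20 insertion settings, and position 37 gave no comparison. Coverage below 30 reads hides positions 21 to 34, and the count of bases at adenosine 58, 44 to 123, limits the difference that could be seen.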
